A study of Mus musculus with 6 samples.

Results

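This account covers 35 genes of protein quality control in the endoplasmic reticulum (ER) of mouse CD4+ T cells, the helper T lymphocytes: chaperones, the sensors of the unfolded protein response (UPR), the ER-associated degradation (ERAD) machinery and components of protein entry into the ER. They were taken by name from a list of such genes, with no threshold on their values, and make up 35 of the 55291 distinct gene symbols of the table. All 35 had a mean value of at least 10 and entered the test. By role they were 13 chaperones and folding factors, 5 sensors or transducers, 12 degradation genes and 5 translocation genes.

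The cells came from the spleens of naive wild-type C57BL/6 mice and were stained with the division dye CFSE. Both groups were cultured for 48 h with IL-2 (200 U) and antibodies to CD3 and CD28. The treated group (3 libraries) also received 5 mM itaconate, the dicarboxylate that activated macrophages produce, and the control group (3 libraries) received 5 mM NaCl. The control columns carry the code NAC, which was read as NaCl, and the labels name no mouse or culture for a library. The p-values below therefore reflect the scatter among these 6 libraries, which may be technical.

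The libraries held 20074299 to 24144999 estimated reads. T cell identity genes were abundant in every library, with a summed value of 8 markers of 67347 to 69291 with itaconate and 58895 to 64781 with NaCl. Of these markers 4 rose and 2 fell. Cd4 itself was at 13466, 13962 and 13094 with itaconate and at 8559, 10191 and 9806 with NaCl. The B and plasma cell list summed to 446 to 578 with itaconate and 799.5 to 943 with NaCl, and of its 6 tested genes Prdm1 fell and Sdc1 rose. Prdm1 carried the lower sum, with means of 120 with itaconate and 540 with NaCl. Tnfrsf17 was at 0 in every library and Jchain in 5 of 6. The myeloid list summed to 159 to 211 with itaconate and 62.2 to 103 with NaCl (2 of 3 tested genes rose), the NK list to 202 to 236 and 95.4 to 129.5, carried by Eomes, and the 2 CD8 genes to 308 to 365 and 363 to 408. Whether these genes came from other cells or from the CD4 T cells, and their part in the results below, was not tested.

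Proteins destined for secretion or the cell surface enter the ER through the Sec61 channel, fold with the help of lumenal chaperones such as BiP, and are sent back to the cytosol for degradation when folding fails. When unfolded proteins accumulate, the membrane sensors IRE1 alpha, PERK and ATF6 are activated. IRE1 alpha splices the mRNA of the transcription factor XBP1, ATF6 is cut to release a transcription factor, and PERK phosphorylates eIF2 alpha and so reduces translation. XBP1 and ATF6 raise ER chaperone and ERAD genes, and activated lymphocytes use them as they expand their secretory pathway.

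Most chaperone genes were lower with itaconate, most translocation genes did not pass the test, and the sensor genes moved in both directions. Of the 35 members 19 fell, 1 rose and 15 did not pass (limma, Benjamini-Hochberg adjusted p under 0.05 over all 13170 tested genes). Across all tested genes 17.8% fell and 18.2% rose, 36.0% in all. The median log2 change of the members was −0.30, against −0.00095 over all tested genes, whose middle 50% lay between −0.34 and 0.32. The 3 itaconate values lay wholly below the 3 NaCl values for 22 members and wholly above for 3, against 24.2% of tested genes in each direction. All fold changes are on the log2(value + 1) scale, where a value is an estimated read count scaled by the authors to be comparable between libraries. The summed value of the 35 genes was 0.495%, 0.525% and 0.495% of the library total with itaconate and 0.682%, 0.664% and 0.637% with NaCl. In bulk RNA, fewer cells of a kind and less RNA per cell cannot be told apart.

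**Figure D1:**
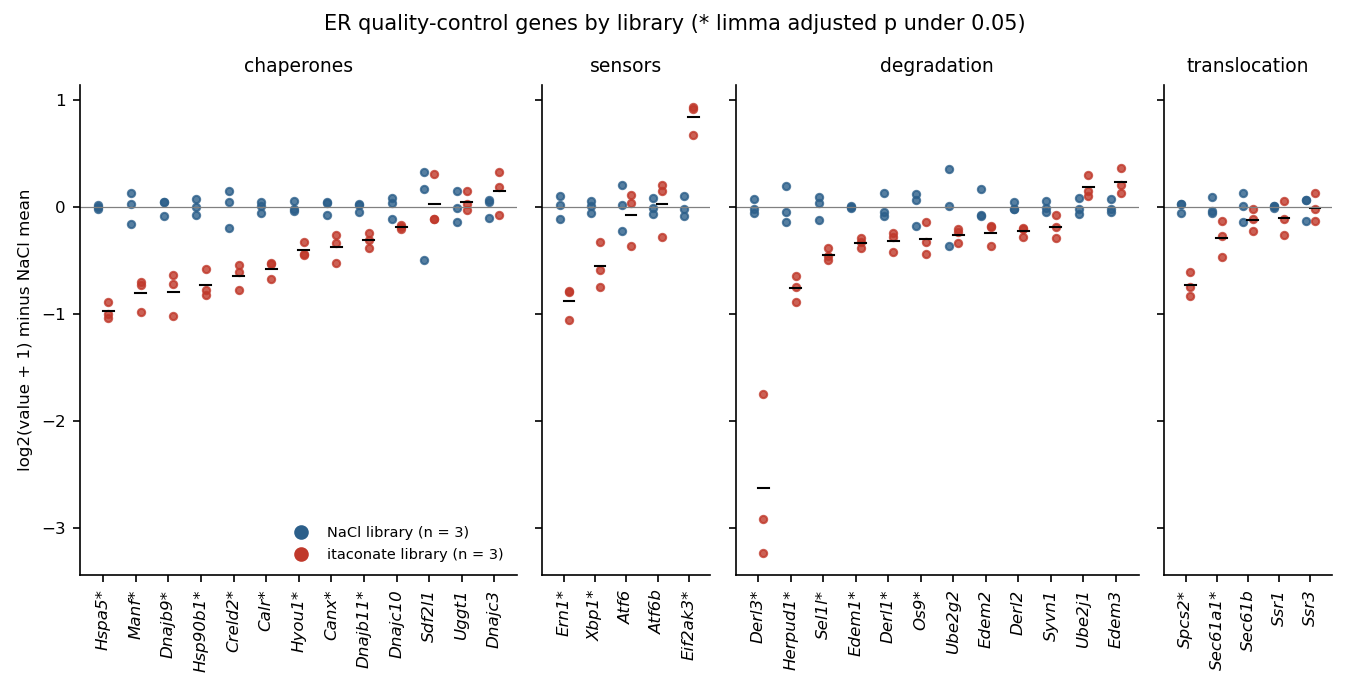
Each of the 35 genes in each library, as log2(value + 1) minus the NaCl mean of that gene; blue points are the 3 NaCl libraries, red points the 3 itaconate libraries and black bars the itaconate means, and asterisks mark limma adjusted p under 0.05. In the chaperone panel 10 of 13 genes have all red points below all blue points. In the sensor panel Ern1 and Xbp1 lie below and Eif2ak3 above. Of all tested genes 24.2% lie wholly below and 24.2% wholly above.

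Among the chaperones and folding factors, 9 of 13 fell, 0 rose and 4 did not pass (median log2 change −0.41). The shares over all tested genes were 17.8% for falls and 18.2% for rises. Hspa5 encodes BiP, the HSP70 chaperone of the ER lumen that also holds the UPR sensors inactive. Its values were 20536, 20285 and 20080.2 with NaCl and 9894, 10984 and 10159 with itaconate. Each group was tight and the groups lay far apart, a 1.96-fold difference (log2 change −0.97 ± 0.079 SE, limma adjusted p = 3.80e-06). Per kilobase of merged exons Hspa5 had the highest NaCl level of the 35 genes (4800.3), followed by Calr (3956) and Hsp90b1 (3580.3). With itaconate, Calr (2656 per kilobase) stood first, ahead of Hspa5 (2446) and Ssr3 (2392).

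Hsp90b1, which encodes GRP94, the HSP90 of the ER, was at 14443, 15159 and 13705 with NaCl and at 8416, 9658 and 8129 with itaconate (log2 change −0.73 ± 0.089 SE). Calr, the lectin chaperone calreticulin, was at 10972, 11731 and 11475 with NaCl and at 7852, 7932 and 7161 with itaconate (−0.58 ± 0.080). Neither gene's groups overlapped. The membrane-bound lectin chaperone calnexin, encoded by Canx, changed less, from 11287, 11352 and 10419 to 8700.1, 9161 and 7648 (−0.38 ± 0.089, limma adjusted p = 0.00549). Its call ended after quantile normalization, where the log2 change was −0.21 (adjusted p = 0.0757). Hyou1, which encodes GRP170, the exchange factor that recharges BiP, was at 5358, 5016 and 5079 with NaCl and 3786, 4100.0 and 3781 with itaconate (−0.41 ± 0.081).

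The smaller ER-stress-inducible factors split into those that fell and one that did not differ detectably. Manf, a secreted neurotrophic factor that binds BiP, was at 3231, 2644 and 2991 with NaCl and 1493, 1809 and 1779.7 with itaconate (log2 change −0.80 ± 0.11 SE). Creld2, an ER protein with EGF-like repeats, was at 491, 623 and 580.0 and at 328, 367 and 385 (−0.64 ± 0.14). For both genes every itaconate library was below every control. Manf shares 146 of its 3524 exon bases with Dcaf1 on the opposite strand (mean value 1904, against 2324 for Manf) and 14 with Rbm15b on the same strand (1305), and without a stated strand setting reads there cannot be assigned with certainty. Sdf2l1, a subunit of an ER chaperone complex with an HSP40 protein, overlapped fully, at 513, 290.3 and 458 with NaCl and 507, 378 and 378 with itaconate (0.03 ± 0.20, limma adjusted p = 0.928).

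The HSP40 cochaperones of BiP differed among themselves. Dnajb9 (ERdj4), which keeps IRE1 alpha bound to BiP, was at 286, 286 and 261 with NaCl and at 137, 168 and 179 with itaconate, and fell (log2 change −0.79 ± 0.17 SE, limma adjusted p = 0.00337). Dnajb11 (ERdj3) fell less, from 1469.6, 1404 and 1482 to 1115, 1225 and 1174 (−0.31 ± 0.093, adjusted p = 0.0202). Leaving out a single library ended that call for itaconate replicate 1 (adjusted p = 0.0668) and for NaCl replicates 1 (0.0551) and 3 (0.0641), with log2 changes from −0.28 to −0.30. Dnajc10 (ERdj5), a disulfide reductase used in ERAD, was at 2151, 2078 and 1876 and at 1785, 1764 and 1806, values that did not overlap but did not pass (−0.19 ± 0.090, adjusted p = 0.126). Dnajc3, which encodes P58IPK, an inhibitor of PERK, was at 2924, 2882 and 2593 with NaCl and 3185, 3501 and 2660.4 with itaconate (0.15 ± 0.11, adjusted p = 0.310). Uggt1, the glucosyltransferase that returns misfolded glycoproteins to calnexin and calreticulin, also overlapped between groups (0.05 ± 0.096, adjusted p = 0.737).

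The promoters of these genes are known for the ER stress response element (ERSE), to which ATF6 and XBP1 bind together with NF-Y. RefSeq windows of GRCm38.p6, from 250 bases before to 50 bases after an annotated start, were found for 29 members (not for Derl1, Atf6, Manf, Ube2g2, Sec61a1 and Hyou1) and searched on both strands for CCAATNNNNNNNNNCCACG (ERSE), ATTGG, any base and CCACG (ERSE-II) and the XBP1 element TGACGTGG (UPRE). The ERSE letters were present in 8 of the 29 members with a window and in 0.137% of all 27025 genes with one (0.119% of windows). The ERSE-II letters were in 2 members and in 0.0444% of all genes, and the UPRE letters in 1 member, Ube2j1, and 0.714% of all genes. The ERSE sites are shown because 5 of the 9 falling chaperone genes hold one. Manf and Hyou1, also among the 9, had no window to search. The chaperone gene Dnajc3, which did not pass, holds one too. The sites are printed 5′ to 3′ in the direction of the motif, with 10 bases on either side and the fixed letters in capitals.
Hspa5, chr2:34772015-34772053, plus strand: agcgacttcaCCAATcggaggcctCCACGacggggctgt
Hsp90b1, chr10:86705628-86705666, minus strand: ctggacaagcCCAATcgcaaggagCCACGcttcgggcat
Hsp90b1, chr10:86705523-86705561, plus strand: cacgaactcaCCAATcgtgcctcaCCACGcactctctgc
Calr, chr8:84847065-84847103, plus strand: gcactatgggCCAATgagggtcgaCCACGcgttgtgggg
Canx, chr11:50325790-50325828, minus strand: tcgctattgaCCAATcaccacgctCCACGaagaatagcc
Creld2, chr15:88819510-88819548, minus strand: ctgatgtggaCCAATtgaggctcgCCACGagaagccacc
Derl3, chr10:75893232-75893270, minus strand: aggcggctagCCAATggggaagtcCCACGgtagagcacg
Syvn1, chr19:6046522-6046560, plus strand: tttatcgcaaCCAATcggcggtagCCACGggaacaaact
Dnajc3, chr14:118937817-118937855, plus strand: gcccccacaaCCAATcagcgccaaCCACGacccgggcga

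The ERSE-II sites, in which the pair of boxes stands closer together and the first is inverted, are printed in the same way.
Herpud1, chr8:94386367-94386397, plus strand: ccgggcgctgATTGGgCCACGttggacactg
Dnajb11, chr16:22857842-22857872, plus strand: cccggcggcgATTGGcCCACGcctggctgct

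All 9 ERSE sites lay upstream of the annotated start, from 212 to 26 bases before it, and Hsp90b1 held 2 of them. The ERSE-II letters of Herpud1 began 52 bases before the start and those of Dnajb11 began 7 bases after it, in the first exon. Of the 10 members with ERSE or ERSE-II letters 8 fell, with a median log2 change of −0.61. The exceptions, which did not pass, were Syvn1 (−0.19) and Dnajc3 (0.15). Of the 19 members whose window held neither, 7 fell, with a median of −0.19. The 6 members without a window could not be searched, and 4 of them fell, with a median of −0.30. Of all tested genes 17.8% fell and 18.2% rose. Outside the members, 10 tested genes held the ERSE letters, of which 3 fell and 1 rose (median 0.0865). Of 7 others with the ERSE-II letters 4 fell and 0 rose (median −0.37). These counts describe the genes that were searched and were not tested.

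The 250 bases before the Hspa5 start, chr2:34771840-34772089 on the plus strand, are shown with the fixed ERSE letters in capitals.
Hspa5 upstream region: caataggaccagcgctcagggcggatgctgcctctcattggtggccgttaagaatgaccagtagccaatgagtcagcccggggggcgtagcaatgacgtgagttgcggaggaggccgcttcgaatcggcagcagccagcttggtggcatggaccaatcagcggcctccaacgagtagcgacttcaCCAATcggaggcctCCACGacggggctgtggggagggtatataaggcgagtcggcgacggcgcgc

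**Figure D2:**
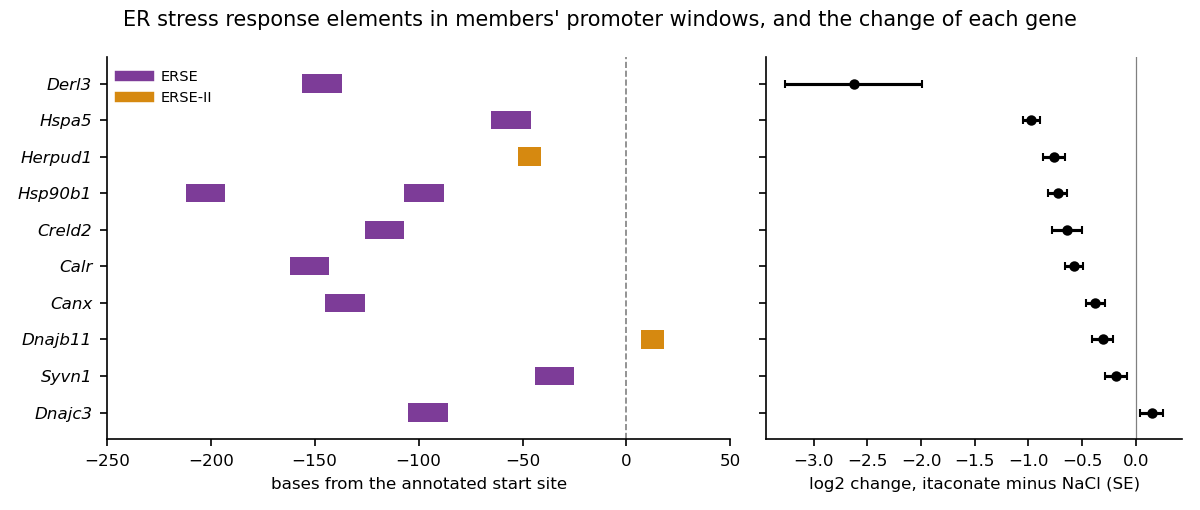
Left, position of ERSE and ERSE-II letters in bases from the annotated start site (dashed line at 0) for the 10 members that hold them; right, log2 change of the same genes with itaconate minus NaCl, with its SE. Derl3, Hspa5 and Herpud1 stand at the top with the lowest changes, and Syvn1 and Dnajc3 at the bottom.

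The 3 sensor branches did not move as one: of 5 genes 2 fell, 1 rose and 2 did not pass. Over all tested genes 17.8% fell and 18.2% rose. Ern1, which encodes IRE1 alpha, was at 852, 903 and 781 with NaCl and at 405, 486 and 489 with itaconate, a 1.84-fold difference with no overlap (log2 change −0.88 ± 0.12 SE, limma adjusted p = 1.82e-04). Its substrate Xbp1 also fell, from 5523, 5969 and 5764 to 3418, 3826 and 4581 (−0.55 ± 0.10, adjusted p = 0.00133). Itaconate replicate 3 was nearest to the controls for Xbp1, and still below each of them. Rtcb, the RNA ligase that rejoins the cut Xbp1 exons, was at 3792, 3808 and 3939 with NaCl and 4364, 4705 and 4434 with itaconate, and rose slightly (0.23 ± 0.079, adjusted p = 0.0408). The Rtcb call ended without any 1 of the 6 libraries (adjusted p from 0.0539 to 0.157).

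The deposited values are per gene and do not separate unspliced from spliced Xbp1. The difference between the forms is a stretch of 26 bases in exon 4, chr11:5524279-5524304 on the plus strand of GRCm38, in the coding sequence. It is printed in capitals with 20 bases on either side, from transcript Xbp1-201 of GENCODE release M21, because it shows how small the piece is that IRE1 alpha removes.
Xbp1-201: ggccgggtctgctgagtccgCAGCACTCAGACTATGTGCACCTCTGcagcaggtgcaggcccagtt
Without these bases the reading frame runs for 371 codons in place of 267. The stretch is present in 3 of the 4 annotated Xbp1 transcripts, and reads of either form count toward the same gene value.

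Eif2ak3, which encodes PERK, was the single member that rose. It was at 1059, 1146 and 1009 with NaCl and at 2045, 2020.3 and 1709 with itaconate, so the lowest itaconate value was well above the highest control (1.79-fold, log2 change 0.84 ± 0.10 SE, limma adjusted p = 7.27e-05). Eif2ak3 shares 485 of its 6026 exon bases with Gm43292 on the opposite strand, which had a mean value of 11.3, against 1498 for Eif2ak3. The Ern1 and Eif2ak3 calls held under each of the 16 other settings tried, with log2 changes of −0.94 to −0.79 and 0.80 to 0.93. Atf6 was at 1546, 1353 and 1146 with NaCl and 1444, 1369.5 and 1036 with itaconate (−0.08 ± 0.14, adjusted p = 0.711). Its paralog Atf6b was at 1068, 998 and 961 and at 1162, 828 and 1115 (0.02 ± 0.13, adjusted p = 0.912). For both the groups overlapped, and the spread within a group was larger than the difference between groups. Per kilobase, Atf6b (366) stood above Eif2ak3 (178), Atf6 (146) and Ern1 (103) in NaCl, whereas with itaconate Eif2ak3 (319) stood close below Atf6b (375).

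**Figure D3:**
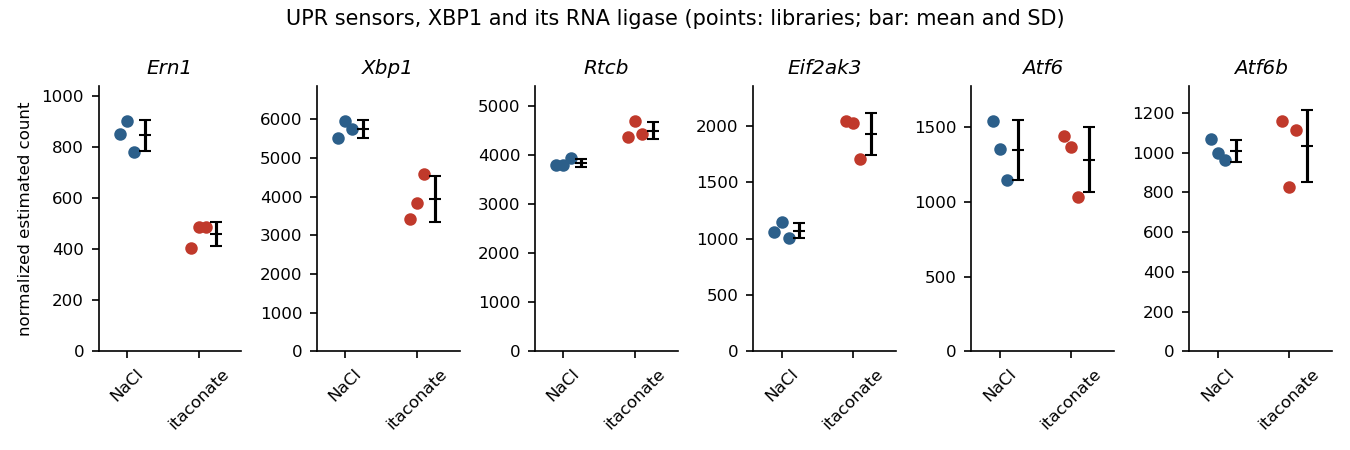
Normalized estimated counts of the sensor genes, Xbp1 and its ligase gene Rtcb in each library, with the mean and SD of each group beside the points; every vertical axis starts at 0 and has its own scale. Ern1 and Xbp1 are lower and Eif2ak3 is higher in all itaconate libraries, and the Atf6 and Atf6b groups overlap.

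Other UPR regulators, from a list that leaves out the members, were mostly lower. Of 16 tested 9 fell, 1 (Rtcb) rose and 6 did not pass, where 17.8% of all tested genes fell and 18.2% rose. The smallest p-values in this list belonged to Trib3, Ddit3 and Ppp1r15a. The pseudokinase gene Trib3 changed by −1.77 ± 0.13 SE on the log2 scale, and Ddit3, which encodes CHOP, by −1.22 ± 0.094. Ppp1r15a, which encodes the GADD34 subunit that directs dephosphorylation of eIF2 alpha, changed by −1.30 ± 0.10. These 3 were lower in the libraries in which Eif2ak3 was higher, and whether they reflect PERK activity was not tested.

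In the degradation group 6 of 12 fell, 0 rose and 6 did not pass (median log2 change −0.28), where 17.8% of all tested genes fell. ERAD substrates are recognised by lectins and mannosidases, passed to a membrane complex built around the ubiquitin ligase HRD1 and its partner SEL1L, and pulled out to the proteasome. Herpud1, the HRD1 complex organiser that is itself strongly UPR-inducible, was at 3791, 3004 and 3199 with NaCl and 2118, 1791 and 1969.6 with itaconate (−0.76 ± 0.11 SE, limma adjusted p = 1.60e-04). Sel1l was at 5653, 5435 and 4861 and at 3749.6, 4071 and 3853 (−0.45 ± 0.087, adjusted p = 0.00163). In both genes the groups were apart. The ligase gene Syvn1, which encodes HRD1, was at 1275, 1245 and 1339 with NaCl and at 1127, 1049 and 1220.4 with itaconate, without overlap but also without passing (−0.19 ± 0.099, adjusted p = 0.165).

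The derlins are membrane proteins of the retrotranslocation channel. Derl1 was at 4413, 3812 and 3904 with NaCl and 3310.0, 3414 and 3019.6 with itaconate and fell (log2 change −0.31 ± 0.091 SE, limma adjusted p = 0.0164). Its call ended without NaCl replicate 1 (adjusted p = 0.0690) and in limma without the intensity trend (0.0704). Derl2 was at 1158, 1212 and 1162 and at 966, 1026 and 1023 (−0.23 ± 0.095, adjusted p = 0.0796). Derl2 shares 231 of its 8049 exon bases with Mis12 on the opposite strand, which had a mean value of 854 against 1091 for Derl2. The Derl1-minus-Derl2 difference within a library did not separate the groups (−0.09, exact permutation p = 0.50).

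Derl3, the derlin of highly secretory cells, had the lowest level of the 35 genes. It was at 26.5, 29.1 and 27.2 with NaCl and at 2.81, 7.52 and 2.05 with itaconate, a wide gap between groups (log2 change −2.63 ± 0.64 SE, limma adjusted p = 0.00642). In estimated reads these were 26, 29 and 30 against 3, 7 and 2. The pooled ratio of NaCl to itaconate, scaled for depth, was 6.85 (exact 95% interval 3.72 to 13.8, counting error only). With a pseudocount of 10 the log2 change was −1.43, still past the threshold. The summed B and plasma cell list was also lower with itaconate (446 to 578 against 799.5 to 943), a difference carried by Prdm1 (mean 120 against 540). Of the 6 tested genes of the list Prdm1 was the 1 that fell, and Sdc1 rose. The part of this list in the Derl3 values was not tested.

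The EDEM mannosidase family trims glycans of misfolded proteins and marks them for disposal. Edem1 was at 5923, 5892 and 5935 with NaCl and at 4542, 4709 and 4848 with itaconate and fell (log2 change −0.33 ± 0.077 SE, limma adjusted p = 0.00483). Edem2 was at 1112, 1099 and 1309.8 and at 907, 1026 and 1036 (−0.24 ± 0.11, adjusted p = 0.102). Edem3 went the other way without passing, from 923, 987 and 907 to 1080.3, 1206 and 1028 (0.23 ± 0.10, adjusted p = 0.101). Within each library, Edem1 relative to Edem3 was lower with itaconate, with a difference of −0.56 on the log2 scale and the groups apart (exact permutation p = 0.10, two-sided). Edem2 relative to Edem3 differed by −0.48 (exact permutation p = 0.10), and Edem1 relative to Edem2 by −0.09 (exact permutation p = 0.40). With 3 libraries against 3, 0.10 is the smallest p this test can give, and adjusted over the 8 pairs compared it was 0.20.

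The lectin gene Os9 was at 2595, 3069.9 and 3189.7 with NaCl and 2340.1, 2169.8 and 2657 with itaconate. Its groups overlapped, and its call (log2 change −0.30 ± 0.11 SE, limma adjusted p = 0.0405) ended when itaconate replicate 1 (0.0861) or 2 (0.171) or NaCl replicate 2 (0.126) or 3 (0.147) was left out, with no filter (0.0603) and without the intensity trend (0.129). Neither ubiquitin-conjugating enzyme passed. Ube2j1, which is anchored in the ER membrane, was at 1629, 1801 and 1686 with NaCl and at 2101, 1889 and 1826 with itaconate (0.18 ± 0.094, adjusted p = 0.148). Ube2g2 had 1 high control (1351, 819 and 1059 against 833, 913 and 896; −0.26 ± 0.15, adjusted p = 0.207), and its value rested on single controls. Without NaCl replicate 1, the high one, the log2 change of Ube2g2 was −0.081 (limma adjusted p = 0.691), and without NaCl replicate 2, the low one, it was −0.44 and passed (0.0295).

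Where 17.8% of all tested genes fell and 18.2% rose, 6 of 35 further degradation genes fell, 3 rose and 26 did not pass. Their median log2 change was 0.02. Those with the smallest p among the falls were Erlin1, a lipid raft protein of the ER (−0.82 ± 0.15 SE), Faf2, which recruits the VCP segregase to the ER (−0.54 ± 0.081), and the rhomboid protease gene Rhbdd1 (−0.49 ± 0.096). Ubac2 (0.30 ± 0.10), the mannosidase gene Man1b1 (0.26 ± 0.088) and the HRD1 cofactor gene Fam8a1 (0.30 ± 0.10) rose. Each of these 3 rises ended without at least 3 of the 6 libraries in turn, with adjusted p up to 0.135, 0.106 and 0.175.

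At the entry to the ER, 2 of 5 members fell and 3 did not pass (median log2 change −0.12), where 17.8% of all tested genes fell. Spcs2, a subunit of the signal peptidase that removes signal sequences, was at 4748, 4754 and 4486 with NaCl and at 2611, 3048 and 2769 with itaconate, with no overlap (−0.73 ± 0.087 SE, limma adjusted p = 5.47e-05). Sec61a1, the pore subunit of the Sec61 channel, was at 9127, 8214 and 8326 and at 6168, 7784 and 7092 (−0.29 ± 0.096, adjusted p = 0.0315). Leaving out itaconate replicate 1 (0.133) or NaCl replicate 1 (0.103), 2 (0.0556) or 3 (0.0578) ended its call, which leaves 1 of 5. It also ended with no filter (0.0563), after quantile normalization (0.142) and without the intensity trend (0.117). The small channel subunit Sec61b (−0.12 ± 0.11) and the translocon-associated proteins Ssr1 (−0.11 ± 0.092) and Ssr3 (−0.01 ± 0.093) overlapped between groups. Ssr3 was at 10443, 10489 and 9134 with NaCl and at 9869, 10958 and 9109 with itaconate.

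Among all tested genes 17.8% fell and 18.2% rose, the shares to set beside both lists that follow. Of 32 other genes of translocation and N-glycan transfer, 12 fell, 0 rose and 20 did not pass (median log2 change −0.18). Krtcap2 (−0.78 ± 0.11 SE) and Ddost (−0.54 ± 0.088), both of the oligosaccharyltransferase that attaches N-glycans, and Srp54a of the signal recognition particle (−0.48 ± 0.083) had the smallest p-values. Srp54a has close copies, Srp54b and Srp54c, between which RSEM divides reads, so its own value is uncertain. Of 20 tested genes of other folding and glycan processing, 3 fell, 1 rose and 16 did not pass (median −0.16). Those that fell were the saposin-like gene Cnpy2 (−1.35 ± 0.13), Sdf4, a calcium-binding protein of the secretory pathway (−0.75 ± 0.086), and Creld1 (−0.59 ± 0.17), a relative of Creld2. Cnpy3, a chaperone of Toll-like receptors, rose (0.37 ± 0.12). Creld1 no longer passed when itaconate replicate 2 (adjusted p = 0.0751) or NaCl replicate 3 (0.0808) was left out, nor Cnpy3 when any library but itaconate replicate 3 was (adjusted p from 0.0585 to 0.118).

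**Figure D4:**
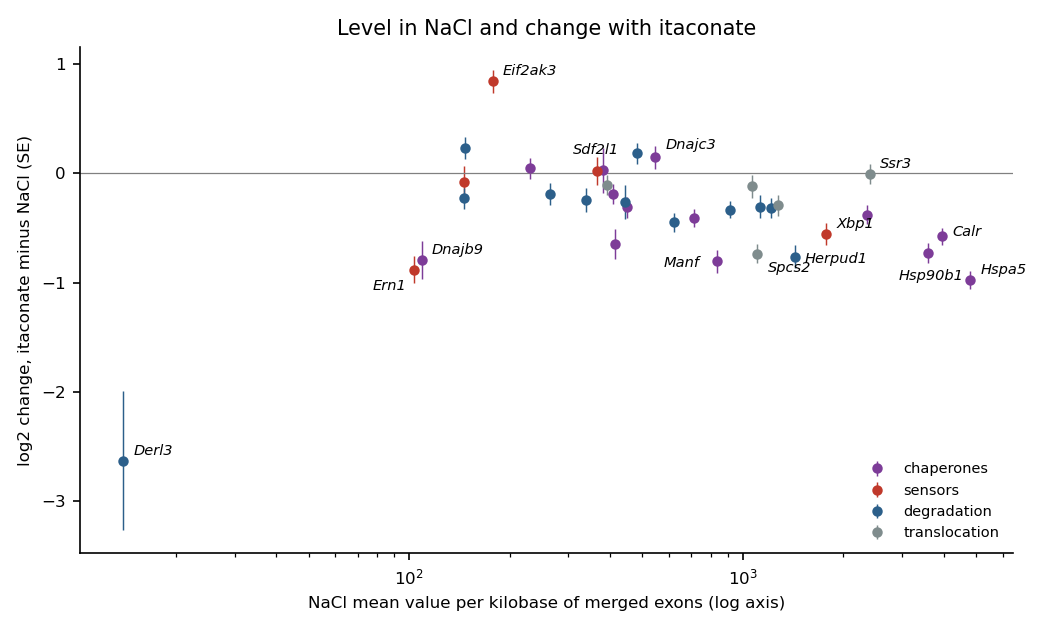
NaCl mean value per kilobase of merged exons (log axis) against the log2 change with itaconate (SE) for the 35 members, coloured by role. The 3 genes with the highest NaCl level, Hspa5, Calr and Hsp90b1, all lie below 0, Ssr3 lies near 0 at a high level, and Eif2ak3 is the highest point.

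The chaperones of the ER were compared with the members of the same families in the cytosol and mitochondria. Hspa8, the constitutive cytosolic HSP70, was at 52062, 48196 and 40854 with NaCl and at 80548, 68488 and 54862 with itaconate and rose (log2 change 0.52 ± 0.14 SE, limma adjusted p = 0.00965; 0.0756 without the intensity trend). Within each library Hspa5 relative to Hspa8 was lower with itaconate, with a difference of −1.49 on the log2 scale and no overlap (exact permutation p = 0.10, the smallest possible; 0.20 adjusted over the 8 pairs). Hsp90ab1, the constitutive cytosolic HSP90, was at 104489, 103142 and 98594 and at 115141, 110151 and 99252 (0.08 ± 0.098, adjusted p = 0.547). After quantile normalization it passed (0.21, adjusted p = 0.0299). Hsp90b1 relative to Hsp90ab1 differed by −0.81, also without overlap (exact permutation p = 0.10).

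Not all cytosolic and mitochondrial relatives differed from the ER genes in direction. The inducible cytosolic HSP90 gene Hsp90aa1 (−0.84 ± 0.088) and the mitochondrial HSP70 gene Hspa9 (−0.48 ± 0.10) fell, while the mitochondrial HSP90 gene Trap1 (−0.01 ± 0.12) and the cytosolic HSP40 genes Dnaja1 (0.15 ± 0.12) and Dnajb1 (−0.09 ± 0.10) did not pass. Sdf2l1 relative to its paralog Sdf2 (−0.18, exact permutation p = 0.50) and Atf6 relative to Atf6b (−0.10, exact permutation p = 0.80) did not separate the groups.

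**Figure D5:**
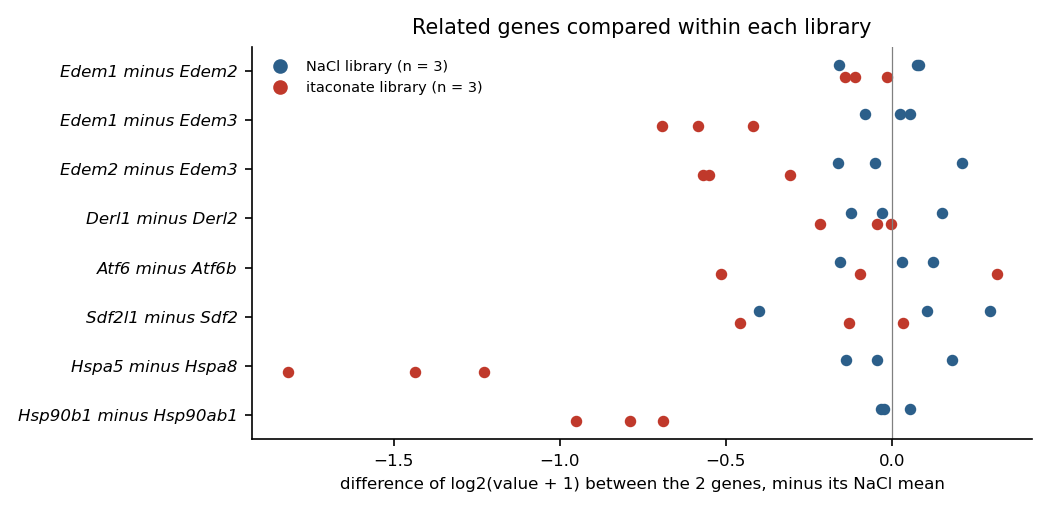
For 8 pairs of related genes, the difference of log2(value + 1) between the pair within each library, minus its NaCl mean; blue points are NaCl and red points itaconate libraries. The groups are apart for Edem1 and Edem2 against Edem3, Hspa5 against Hspa8 and Hsp90b1 against Hsp90ab1, and overlap for the other 4 pairs.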

How the data were processed

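The authors deposited 1 table of RSEM estimated counts divided by a library size factor, here called a normalized expression signal. STAR 2.7.0f, RSEM 1.3.0 and the mm10 genome were used, per the submitters' processing notes; annotation, strand setting and filters were not given in the sources used here. Since 80.0% to 82.2% of values above 0 were whole reads (within 0.02 reads), no count model was used. For a symbol on several entries (107 symbols) the entry with the highest mean was kept. Symbols with a mean of at least 10 (13170) were fitted as log2(value + 1) in limma 3.58.1 (R 4.3.3), two-sided, using the intensity trend and no covariate.

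Pairs of genes were compared by an exact permutation test of their within-library difference. Merged exon lengths came from GENCODE release M21, which may differ from the authors' annotation. Differences in total RNA per cell do not show in such values. Alternatives were other pseudocounts (0.1, 10), filters, scalings (trimmed mean of M-values, median-ratio, quantile), variance settings, the replicate number as a block, and each library left out. The members and lists were chosen with earlier results of these data known. Named were all members, all family relatives and, per further list, up to 3 genes with the smallest p in each direction.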

Additional observations from a re-analysis of the deposited data

How the results depend on the processing

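Of the 20 members that passed, 15 did so under every alternative that tested them. Over the 16 alternatives the members that fell numbered 16 to 21, and 1 rose in each. Leaving out 1 library in turn gave 16 to 19 falling members (chaperones 8 to 9, sensors 2, degradation 5 to 6, translocation 1 to 2) and 3484 to 5010 genes in all. The translocation count was 1 with no filter, after quantile normalization and without the intensity trend. With the replicate number as a block, 21 members fell (Edem2, adjusted p = 0.0479, and Derl2, 0.0489, passed) and 5634 genes passed in all; the pairs kept their direction (Hspa5 minus Hspa8 −1.49, exact permutation p = 0.25, the smallest that 3 pairs can give). Same-numbered libraries correlated at 0.147, 0.0381 and 0.130 in their deviations across genes, and each of the 6 libraries correlated best with its own number, a hint from the data and not from the labels. After quantile normalization Atf6b (−0.0012) and Ssr3 (0.15), which did not pass, changed sign. Leaving out 1 library also turned the sign of 6 genes that did not pass, with log2 changes of −0.22 to 0.19 for Sdf2l1, −0.022 to 0.12 for Uggt1, −0.19 to 0.071 for Atf6, −0.069 to 0.17 for Atf6b, −0.077 to 0.056 for Ssr3 and −0.14 to 0.093 for Trap1. The difference Atf6 minus Atf6b ranged from −0.31 to 0.11 when each library was left out, an alternative chosen after seeing the data. The cause of these changes was not tested. Depth limits Derl3, which rests on 12 estimated reads with itaconate.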

Other observations

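Outside the members, 10 tested genes held the ERSE letters in a promoter window. Of these 3 fell and 1 rose, with a median log2 change of 0.087, where 17.8% of all tested genes fell and 18.2% rose. The mannosyltransferase gene Alg12, which builds the N-glycan precursor (−1.23 ± 0.15 SE, limma adjusted p = 8.26e-05), the adenylate cyclase gene Adcy3 (−0.62 ± 0.15) and the disulfide isomerase gene Pdia6 (−0.35 ± 0.078) fell, and Pan2, of the deadenylase that shortens poly(A) tails, rose (0.78 ± 0.12). Of 7 other tested genes with the ERSE-II letters 4 fell and 0 rose, among them Krtcap2. Of 97 other tested genes with the UPRE letters 23 fell and 25 rose, to be set against those shares of all tested genes. These genes are named because they hold the letters, after their values were seen, and no test was made of the counts.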
